A study of Mus musculus with 4 samples.

Results

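The G1 cyclins, the Myc genes and the CDK inhibitors of the CIP/KIP family were followed in whole larynx RNA of mouse embryos without *Shh* and of wild-type embryos. The set holds 10 genes, taken by symbol and by role, with no measured value in the rule: the D-type cyclins *Ccnd1*, *Ccnd2* and *Ccnd3*, the E-type cyclins *Ccne1* and *Ccne2*, *Myc* and *Mycn*, and the inhibitors *Cdkn1a*, *Cdkn1b* and *Cdkn1c*. They are 10 of 46983 genes in the tables, and all 10 were among the 16972 genes that were expressed highly enough to be tested (a mean of at least 1 TPM over the libraries). Each library was made from a pool of 3 larynxes at E10.5, with 2 pools labelled Shh1 and Shh2 and 2 pools labelled WT4 and WT6. The mutant pools carry the germline null allele Shhtm1amc, which is kept on a Swiss Webster background, and the control pools are Swiss Webster WT. The labels of the mutant pools write Shh+/-, while the series design and the methods name Shh-/- embryos, and the pools are called Shh-/- here. No promoter-driven transgene is involved, so every cell of a mutant embryo carries the allele, and dissected larynx mixes epithelium, mesenchyme, nerve, muscle and vessel cells.

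Cells commit to a new round of division in G1. D-type cyclins bind CDK4 and CDK6, E-type cyclins bind CDK2, and both kinds of kinase phosphorylate the RB proteins, which releases E2F transcription factors and opens S phase. MYC and MYCN are transcription factors that drive growth and entry into the cycle, and the CIP/KIP proteins bind cyclin-CDK complexes and hold cells in G1 or let them leave the cycle. In several embryonic tissues, cerebellar granule neuron precursors among them, HH signaling is known to raise *Mycn* and D-type cyclin RNA, and CDKN1C is known as the inhibitor of differentiating embryonic cells, expressed from the maternal allele. The comparison asks how the RNA of these genes stands in the larynx when *Shh* is absent.

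RefSeq promoter windows (GRCm38.p6, 250 bases before to 50 after the start site) were at hand for 5 of the 10 genes, with 7 windows in all, and not for *Ccnd1*, *Ccnd2*, *Ccne2*, *Myc* or *Cdkn1c*. The windows of *Mycn*, *Ccne1* and *Cdkn1b* are shown because these are the genes among the 5 whose Shh-/- and WT pools did not overlap. *Mycn* lies on the minus strand (chr12:12941787-12942086), as does *Ccne1* (chr7:38107441-38107740), and *Cdkn1b* on the plus strand (chr6:134920151-134920450). Capitals mark every match on either strand to the E2F letters TTGGCGC and TTCCCGC, to the E-box CACGTG, to the GLI letters GACCACCCA and to their core CCACCCA, which lies inside the longer GLI motif.
Mycn: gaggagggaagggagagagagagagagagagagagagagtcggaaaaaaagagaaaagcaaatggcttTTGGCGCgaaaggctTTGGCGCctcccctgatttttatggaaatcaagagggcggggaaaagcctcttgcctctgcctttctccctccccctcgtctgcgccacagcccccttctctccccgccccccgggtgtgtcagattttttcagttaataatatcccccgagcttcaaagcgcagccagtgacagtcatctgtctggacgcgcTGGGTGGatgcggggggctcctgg
Ccne1: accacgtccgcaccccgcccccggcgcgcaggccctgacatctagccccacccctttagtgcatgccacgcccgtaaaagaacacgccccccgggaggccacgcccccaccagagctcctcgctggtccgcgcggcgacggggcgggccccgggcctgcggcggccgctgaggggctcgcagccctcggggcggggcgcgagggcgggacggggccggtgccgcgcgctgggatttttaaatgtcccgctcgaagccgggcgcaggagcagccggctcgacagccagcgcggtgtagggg
Cdkn1b: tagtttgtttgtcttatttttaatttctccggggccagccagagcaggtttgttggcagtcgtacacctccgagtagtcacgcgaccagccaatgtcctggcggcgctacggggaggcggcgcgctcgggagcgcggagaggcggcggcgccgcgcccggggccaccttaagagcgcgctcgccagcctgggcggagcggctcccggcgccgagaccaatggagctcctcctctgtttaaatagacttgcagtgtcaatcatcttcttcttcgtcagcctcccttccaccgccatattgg

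The *Mycn* window holds TTGGCGC at 2 places, starting at positions −182 and −167 from the start site. It also holds the reverse complement of the GLI core, TGGGTGG, from position 27. None of these letters was found in the *Ccne1* and *Cdkn1b* windows. Among all 32851 windows of the table, 2.45% hold TTGGCGC, 4.6% TTCCCGC, 7.15% CACGTG, 0.25% GACCACCCA and 9.3% CCACCCA, each counted on both strands. The GLI core was also found in 1 of the 2 windows of *Ccnd3* and in 1 of the 2 windows of *Cdkn1a*, which makes 3 of 7 windows. The matches are letters in a window and were not set against binding data.

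The depth of the libraries, worked out from the tables, was 1.37 and 3.13 aligned gigabases in the Shh-/- pools and 2.85 and 2.97 in WT, so the first mutant pool was sequenced least deeply. The libraries separated as labeled: *Ptch1*, the HH receptor and target, stood at 57.8 and 55.1 TPM in WT larynx but fell to 12.9 and 13.8 TPM without *Shh* (limma adjusted p = 0.0319, Benjamini-Hochberg). *Gli1*, the HH effector, was at 3.20 and 8.45 against 41.7 and 32.9 TPM (adjusted p = 0.0715). *Shh* itself was at 10.4 and 10.8 against 23.7 and 42.1 TPM (adjusted p = 0.0895), and the gene tables do not tell which exons these reads cover. All 10 markers of foregut epithelium and all 10 of foregut mesenchyme that were listed for the check were detected in the tested range. Values below are TPM, a transcript abundance per length that is scaled to the same total in every library, and log2 fold changes are differences of log2(TPM + 1), Shh-/- minus WT, fitted with limma across all tested genes.

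Among the 10 genes, the cyclins with the clearest differences lay lower in the Shh-/- pools and the inhibitors *Cdkn1b* and *Cdkn1c* higher, but no gene passed an adjusted p of 0.05. The counts of higher genes given below were near the shares over all tested genes. In log2 fold change, *Cdkn1b* stood above 88.8% and *Cdkn1c* above 84.2% of all tested genes, while *Ccne2* stood above 3.11% and *Ccnd2* above 4.01%. *Ccne2* and *Ccnd2* had the lowest ratios in TPM, at 0.566 and 0.611 times the WT mean, and *Cdkn1b* and *Cdkn1c* the highest, at 1.53 and 1.42 times. In limma with Benjamini-Hochberg adjustment over all tested genes, 0 of the 10 passed 0.05, where 0.725% of all tested genes did (0.560% higher and 0.165% lower). Before adjustment, 5 of the 10 had a p under 0.05 (lower for *Ccnd2*, *Ccne1* and *Ccne2*, higher for *Cdkn1b* and *Cdkn1c*), against 24.8% of all tested genes (7.22% lower and 17.5% higher). At an adjusted p under 0.10 there were 2, *Ccnd2* and *Ccne2*, both lower, against 5.06% (1.11% lower and 3.95% higher). The pools of the genotypes did not overlap for 8 of the 10, 5 lower and 3 higher, against 60.7% of all tested genes (22.7% lower and 38.0% higher). The median log2 fold change of the 10 was 0.03, beside 0.08 for all tested genes, and the median absolute log2 fold change was 0.34 beside 0.27.

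**Figure D1:**
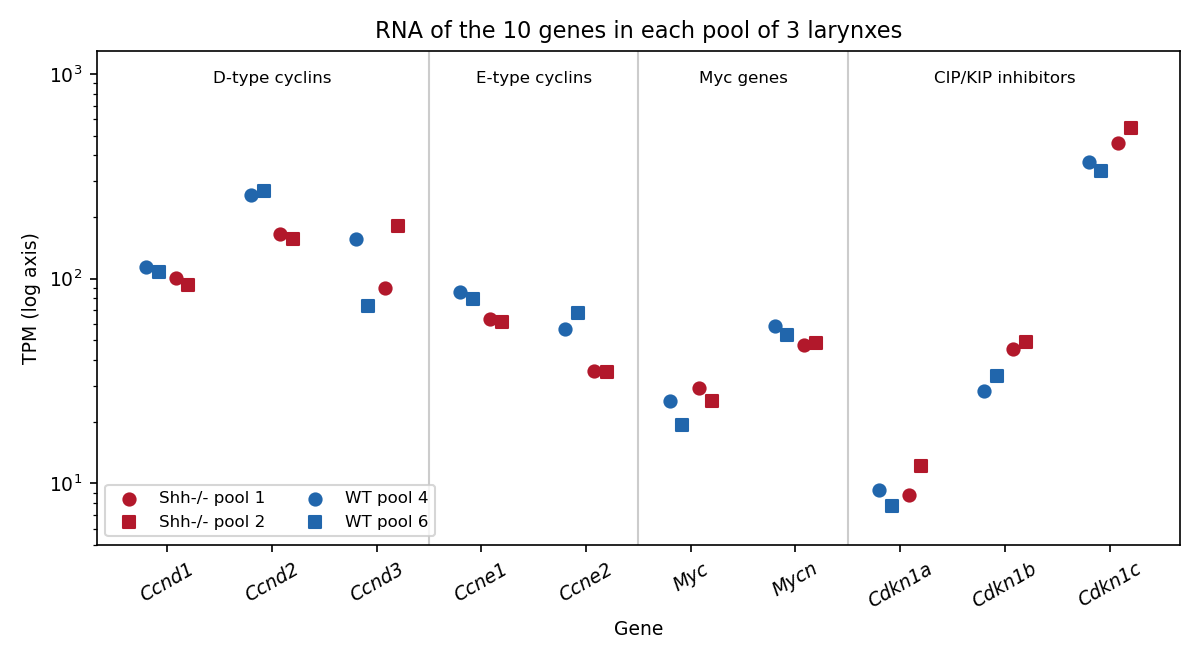
TPM (log axis) of each of the 10 genes in the 4 pools, red for Shh-/- and blue for WT, one symbol per pool of 3 larynxes. The mutant symbols of *Ccnd2*, *Ccne1* and *Ccne2* lie under the WT symbols, those of *Cdkn1b* and *Cdkn1c* above them, and those of *Ccnd3* on both sides.

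**Figure D2:**
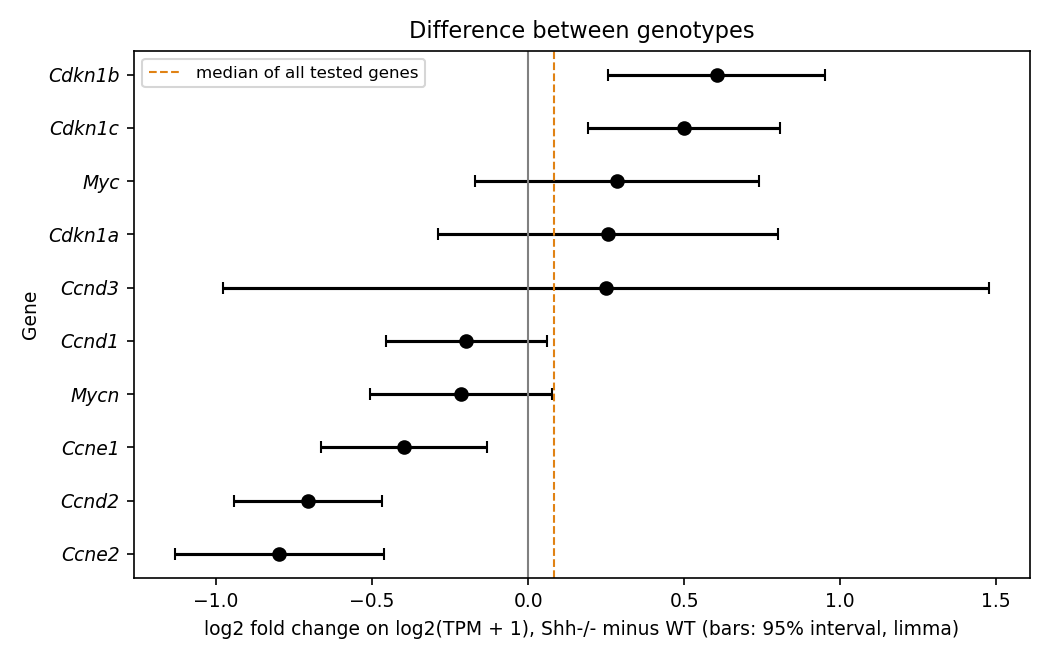
Log2 fold change of each gene on log2(TPM + 1), Shh-/- minus WT, with the 95% interval from limma (2 pools against 2), and the median of all tested genes as a dashed line. The interval of *Ccnd3*, from −0.98 to 1.48, is the widest, and those of *Ccnd2*, *Ccne1*, *Ccne2*, *Cdkn1b* and *Cdkn1c* do not reach 0.

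*Ccnd2*, a D-type cyclin of proliferating progenitors (chromosome 6, 127125162 to 127152193, minus strand), had 165.3 and 155.6 TPM in mutant larynx and 256.0 and 269.0 TPM in WT larynx. Both mutant pools were low and close together, and both WT pools were high. The log2 fold change was −0.71 (standard error 0.09, 95% interval −0.94 to −0.47) with a limma adjusted p of 0.0595. With each library adjusted for GC content and transcript length (the GC and length adjustment), the log2 fold change was −0.83 with an adjusted p of 0.0428, so this gene passed the threshold in that setting.

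*Ccnd1*, the D-type cyclin best known as a target of growth factor signaling (chromosome 7, 144929931 to 144939869, minus strand), measured 100.3 and 93.1 TPM in Shh-/- and 114.2 and 107.9 TPM in WT. The mutant pools lay just under WT, at a log2 fold change of −0.20 (standard error 0.10, interval −0.46 to 0.06, limma adjusted p = 0.286), and −0.42 after the GC and length adjustment (adjusted p = 0.114).

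*Ccnd3*, the D-type cyclin with a known part in blood and muscle cells (chromosome 17, 47505051 to 47599691, plus strand), measured 89.9 and 181.1 TPM in Shh-/- and 156.2 and 73.5 TPM in WT. One pool of each genotype was high and the other low, so the groups overlapped. The log2 fold change was 0.25 (standard error 0.48, interval −0.98 to 1.48, limma adjusted p = 0.761). It turned to −0.25 without the second Shh-/- pool, to −0.29 without the WT pool numbered 6 and to −0.15 after the GC and length adjustment. GENCODE M21 lists 21 transcripts of *Ccnd3*, from 277 to 3858 nt, and the coverage the tables give for this gene amounts to 10.3 to 13.5% of what its FPKM and the aligned bases of the library would give. The same share was 27.4 to 28.2% for *Cdkn1a* and 32.8 to 34.7% for *Ccnd2*, and it lay between 60.0 and 98.9% for the other 7 genes. With gene coverage in place of TPM the log2 fold change was 0.09 for *Ccnd3*, −0.73 for *Ccnd2* and 0.22 for *Cdkn1a*.

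Summed over the D-type cyclins, the RNA was at 355.6 and 429.8 TPM in Shh-/- and at 526.4 and 450.4 TPM in WT. *Ccnd2* made up 46.5 and 36.2% of this sum in the mutant pools and 48.6 and 59.7% in WT. The share of *Ccnd1* overlapped between the genotypes, at 28.2 and 21.7% against 21.7 and 23.96%. Set against *Ccnd1* alone, *Ccnd2* made up 62.2 and 62.6% of their joint TPM in Shh-/- and 69.2 and 71.4% in WT, a difference of −7.87 percentage points. Exact permutation of 2 pools against 2, two-sided, can give no p below 0.33. It gave 0.33 for the shares of *Ccnd2* and 1 for that of *Ccnd1*. For the D-type cyclins only the share of *Ccnd1* was planned. The shares of *Ccnd2* were added, were not run in other settings and serve as a description.

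*Ccne2*, an E2F-regulated partner of CDK2 (chromosome 4, 11191351 to 11204779, plus strand), measured 35.3 and 35.0 TPM in Shh-/- and 56.6 and 67.5 TPM in WT. The mutant pools were nearly equal and both under the WT pools. Its log2 fold change of −0.80 (standard error 0.13, interval −1.13 to −0.46, limma adjusted p = 0.0747) was the lowest of the 10 genes in TPM. After the GC and length adjustment it was −0.58 (adjusted p = 0.129), and *Ccnd2* was then the lowest. *Ccne1*, the other E-type cyclin (chromosome 7, 38097984 to 38107534, minus strand), measured 63.3 and 61.4 TPM against 85.7 and 79.2 TPM. Its pools did not overlap either, and the log2 fold change was −0.40 (standard error 0.10, interval −0.66 to −0.13, limma adjusted p = 0.127), and −0.57 after the GC and length adjustment (adjusted p = 0.0755).

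The E-type cyclins together stood at 98.6 and 96.4 TPM in the mutant and at 142.3 and 146.7 TPM in WT larynx. *Ccne1* was the more abundant of the pair in each library. It made up 64.2 and 63.7% of the E-type sum in Shh-/- and 60.2 and 54.0% in WT (two-sided exact permutation p = 0.33, the smallest possible).

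*Mycn*, the Myc gene of embryonic progenitors (chromosome 12, 12936096 to 12941914, minus strand), measured 47.2 and 48.5 TPM in Shh-/- and 58.9 and 52.7 TPM in WT. The mutant pools were lower by a small margin. The log2 fold change was −0.21 (standard error 0.11, interval −0.51 to 0.08, limma adjusted p = 0.298), and −0.51 after the GC and length adjustment (adjusted p = 0.103). *Myc* (chromosome 15, 61985341 to 61990374, plus strand) measured 29.1 and 25.2 TPM in Shh-/- and 25.2 and 19.3 TPM in WT. The second mutant pool and the WT pool numbered 4 were equal to 3 digits, so that the pools only just failed to overlap. The log2 fold change of *Myc* was 0.28 (standard error 0.18, interval −0.17 to 0.74, limma adjusted p = 0.36), 0.06 after the GC and length adjustment and 0.10 without the WT pool numbered 6.

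The sum of *Myc* and *Mycn* was 76.4 and 73.7 TPM in Shh-/- and 84.1 and 72.0 TPM in WT, with overlapping pools. *Mycn* was the larger part in every library, with 61.9 and 65.8% of the sum in Shh-/- and 70.1 and 73.2% in WT. The difference of −7.78 percentage points had a two-sided exact permutation p of 0.33, the smallest possible.

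*Cdkn1c* (p57, chromosome 7, 143458350 to 143461050, minus strand) was the most abundant of the 10 genes in each library, with 460.8 and 542.6 TPM in Shh-/- and 371.2 and 336.4 TPM in WT. Both mutant pools lay above both WT pools. The log2 fold change was 0.50 (standard error 0.12, interval 0.19 to 0.81, limma adjusted p = 0.115). It was 0.15 after the GC and length adjustment (adjusted p = 0.547), which removed most of the difference. Among 4 tested genes near *Cdkn1c* in the imprinted region, 0 passed the limma threshold and 0 had an unadjusted p under 0.05. The largest differences there were those of *Phlda2*, at 0.75 and 1.40 TPM in Shh-/- and 17.0 and 1.40 TPM in WT, and of *Slc22a18*, at 0.44 and 1.55 against 3.13 and 1.26 TPM. The difference in *Phlda2* rests on a single WT pool.

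*Cdkn1b* (p27, an inhibitor of cells that leave the cycle, chromosome 6, 134920401 to 134925513, plus strand) measured 45.2 and 49.1 TPM in Shh-/- and 28.2 and 33.3 TPM in WT. The groups did not overlap. Its log2 fold change of 0.60 (standard error 0.13, interval 0.26 to 0.95, limma adjusted p = 0.106) was the highest of the set in the fit of TPM from all 4 pools. It was 0.64 after the GC and length adjustment. With quantile normalization of the libraries it was 0.51, under the 0.53 of *Cdkn1c*. *Cdkn1a* (p21, a p53 target, chromosome 17, 29090979 to 29100722, plus strand) was the least abundant of the 10, at 8.77 and 12.1 TPM in Shh-/- and 9.27 and 7.71 TPM in WT. Its pools overlapped, and its log2 fold change was 0.26 (standard error 0.21, interval −0.29 to 0.80, limma adjusted p = 0.471), 0.02 after the GC and length adjustment and 0.05 without the second Shh-/- pool.

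The CIP/KIP inhibitors together stood at 514.8 and 603.9 TPM in Shh-/- and at 408.7 and 377.4 TPM in WT. *Cdkn1c* supplied 89.5 and 89.9% of this in the mutant pools and 90.8 and 89.1% in WT, with overlapping pools. The make-up of the family thus differed by less than the spread between pools. The sum mostly follows *Cdkn1c*, whose log2 fold change of 0.50 was 0.15 after the GC and length adjustment (limma adjusted p = 0.547). That adjustment was not applied to the sums and ratios given here. The ratio of *Cdkn1c* to *Ccnd2*, both in TPM, was 2.79 and 3.49 in Shh-/- and 1.45 and 1.25 in WT. The ratio of *Cdkn1b* to *Ccne2* was 1.28 and 1.40 against 0.499 and 0.493. Both pairs were set side by side after their values were seen, as the inhibitor and the cyclin with the most RNA or the largest difference, and serve as a description.

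**Figure D3:**
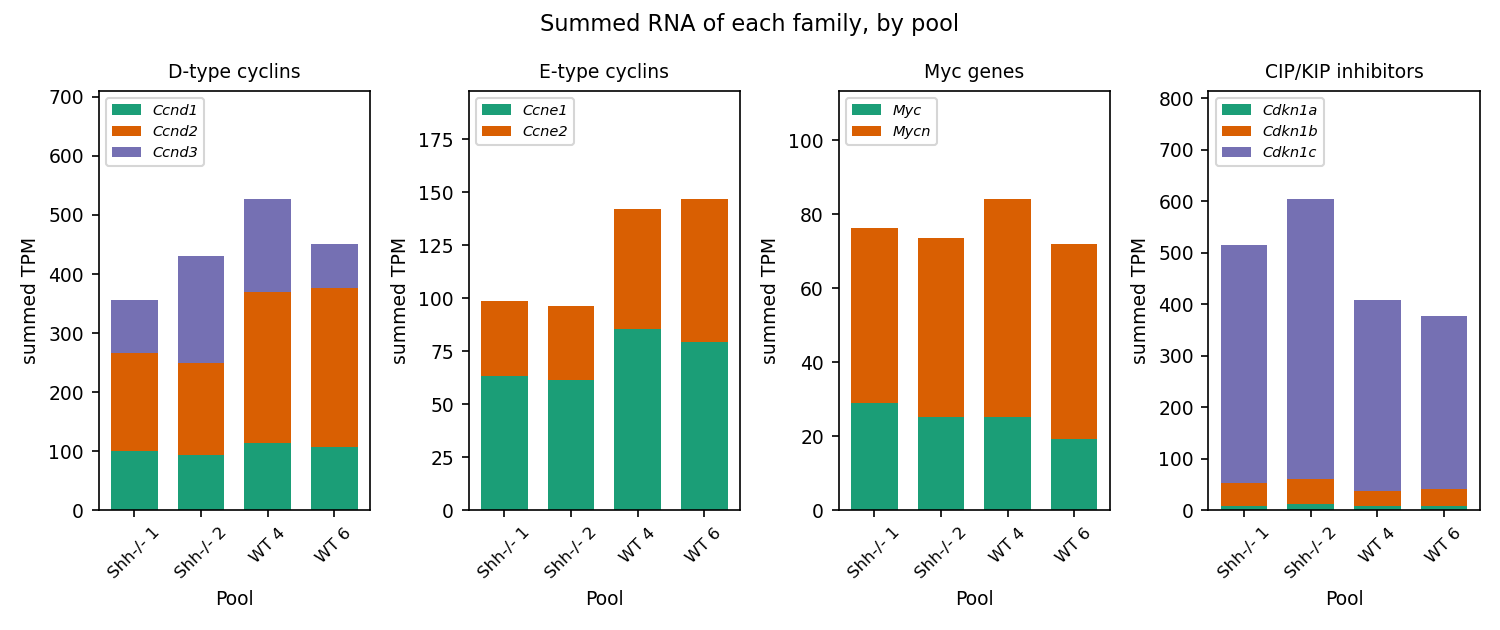
Summed TPM of each family in each pool, stacked by gene, with the axis of each panel starting at 0. The E-type cyclins reach 98.6 and 96.4 TPM for Shh-/- and 142.3 and 146.7 TPM for WT. The CIP/KIP inhibitors are higher in the mutant pools, and the sums of *Myc* and *Mycn* overlap. The GC and length adjustment was not applied to these sums.

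In order of mean TPM, the WT larynx had *Cdkn1c*, *Ccnd2*, *Ccnd3*, *Ccnd1*, *Ccne1*, *Ccne2*, *Mycn*, *Cdkn1b*, *Myc* and *Cdkn1a*. Neighbours whose WT pools overlapped were *Ccnd3* and *Ccnd1*, and *Ccne2* and *Mycn*. In the Shh-/- larynx the order was *Cdkn1c*, *Ccnd2*, *Ccnd3*, *Ccnd1*, *Ccne1*, *Mycn*, *Cdkn1b*, *Ccne2*, *Myc* and *Cdkn1a*, so that *Ccne2* stood under *Mycn* and *Cdkn1b*. There the overlapping neighbours were *Ccnd2* and *Ccnd3*, *Ccnd3* and *Ccnd1*, and *Mycn* and *Cdkn1b*.

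Over the 4 libraries, the tested genes whose profile of log2(TPM + 1), centred on its mean, was nearest to that of *Cdkn1b* were *Gpm6a*, *Gm5070* and *Aarsd1*, at Euclidean distances of 0.04 to 0.05. Nearest to *Ccne2* were *Gm24463*, *Gm3411* and *D16Ertd472e*, at distances of 0.04 to 0.08. None of these 6 genes passed an adjusted p of 0.05 in limma. With 4 points a profile is mainly the difference between the groups, and the lists are a description.

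The other genes of the pathway were read from lists chosen by role. Over all tested genes, 0.725% passed the threshold of 0.05 (0.560% higher and 0.165% lower). Of 9 tested G1 kinases and their activators, 1 passed the threshold: *Cdk6*, the D-type cyclin partner kinase, fell from 19.8 and 17.7 TPM in WT to 4.90 and 5.48 TPM in Shh-/- (chromosome 5; log2 fold change −1.67, standard error 0.16, limma adjusted p = 0.0418). *Cdk4*, the other partner of the D-type cyclins, measured 1290 and 804.4 TPM in Shh-/- and 893.2 and 1215 TPM in WT, with overlapping pools (log2 fold change −0.03, limma adjusted p = 0.949). Its direction turned to 0.31 without the second Shh-/- pool and to 0.19 without the WT pool numbered 6. The call of *Cdk6* was lost without the filter on TPM (adjusted p = 0.146), with gene coverage in place of TPM (0.109) and without any 1 pool (0.0951 to 0.169), while its log2 fold change stayed between −2.23 and −1.55.

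The INK4 inhibitors, which bind CDK4 and CDK6, had 3 tested members and no call, and *Cdkn2a* lay under 1 TPM. *Cdkn2b* was at 5.53 and 3.97 against 2.07 and 2.43 TPM (log2 fold change 0.81, limma adjusted p = 0.137) and *Cdkn2d* at 30.4 and 31.4 against 26.7 and 23.5 TPM (0.29, adjusted p = 0.232). Among 13 RB and E2F factors none passed, with a median log2 fold change of 0.07. An unadjusted p under 0.05 was found for 3 of the 13 (2 lower and 1 higher), against 24.8% of all tested genes (7.22% lower and 17.5% higher). *Tfdp2*, an E2F partner, had the largest difference (18.1 and 15.2 against 26.3 and 30.2 TPM, log2 fold change −0.73, limma adjusted p = 0.103), followed by *E2f8* (21.3 and 13.6 against 12.3 and 12.1 TPM, 0.45, adjusted p = 0.296). With gene coverage in place of TPM the value of *Tfdp2* was −0.04 (adjusted p = 0.878), and without the first Shh-/- pool that of *E2f8* was 0.14 (adjusted p = 0.709).

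Of 11 genes for the turnover of these proteins none passed, and the median was 0.12. An unadjusted p under 0.05 was found for 2 of the 11, both lower. Over all tested genes, 24.8% had such a p (7.22% lower and 17.5% higher). *Fbxw7*, which marks cyclin E and MYC for degradation, was at 13.9 and 14.6 against 16.2 and 6.49 TPM (log2 fold change 0.43, limma adjusted p = 0.534), a direction that turned to −0.18 without the WT pool numbered 6. *Skp2*, which marks CDKN1B for degradation, was at 94.1 and 93.6 TPM without *Shh* and at 116.1 and 127.7 TPM with it (log2 fold change −0.37, limma adjusted p = 0.133).

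In the Max network, whose proteins pair with MYC or oppose it, 1 of 11 tested genes passed. *Mxd4*, a partner of MAX that represses MYC target genes, rose from 37.3 and 36.5 TPM in WT to 79.4 and 71.7 TPM in Shh-/- (log2 fold change 1.01, standard error 0.11, limma adjusted p = 0.047). Its adjusted p lay above 0.05 in 10 of the 16 other settings run, among them the GC and length adjustment (0.056), with a log2 fold change of 0.81 to 1.08 throughout. Of 15 genes known to respond to MYC in growth and nucleolar function, no call was made, and 4 were lower at an unadjusted p below 0.05: *Gnl3* (105.6 and 105.2 against 168.6 and 177.1 TPM, log2 fold change −0.71, limma adjusted p = 0.0595), *Nop56* (−0.50, adjusted p = 0.136), *Ncl* and *Npm1*. Over all tested genes, 7.22% were lower at such a p. The median of the 15 genes was −0.02.

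Of 15 genes of p53 and its targets other than *Cdkn1a*, no call was made, and the median log2 fold change was 0.38. An unadjusted p below 0.05 was found for 7 of the 15, and 6 of these were higher. Over all tested genes, 24.8% had such a p (17.5% higher and 7.22% lower). *Gadd45a* was at 29.998 and 24.7 against 15.8 and 12.4 TPM (0.91, limma adjusted p = 0.0957), and *Eda2r* at 0.92 and 1.21 against 2.33 and 3.68 TPM (−0.94, adjusted p = 0.137). Among 17 proliferation markers none passed, with a median of −0.14. Before adjustment, 2 had a p under 0.05 upward and 5 downward, beside the same 17.5% and 7.22% of all tested genes. *Bub1* was lower (98.4 and 74.0 against 108.0 and 140.2 TPM, log2 fold change −0.52, limma adjusted p = 0.195) and *Aurkb* higher (97.4 and 85.9 against 72.2 and 61.5 TPM, 0.45, adjusted p = 0.145). Of 10 HH target genes 8 were lower, and *Ptch1*, *Hhip*, *Foxf2* and *Foxl1* passed the threshold. With any single pool left out, 0 of these 4 did. *Bmp4* and *Nkx2-3* were higher and did not pass.

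**Figure D4:**
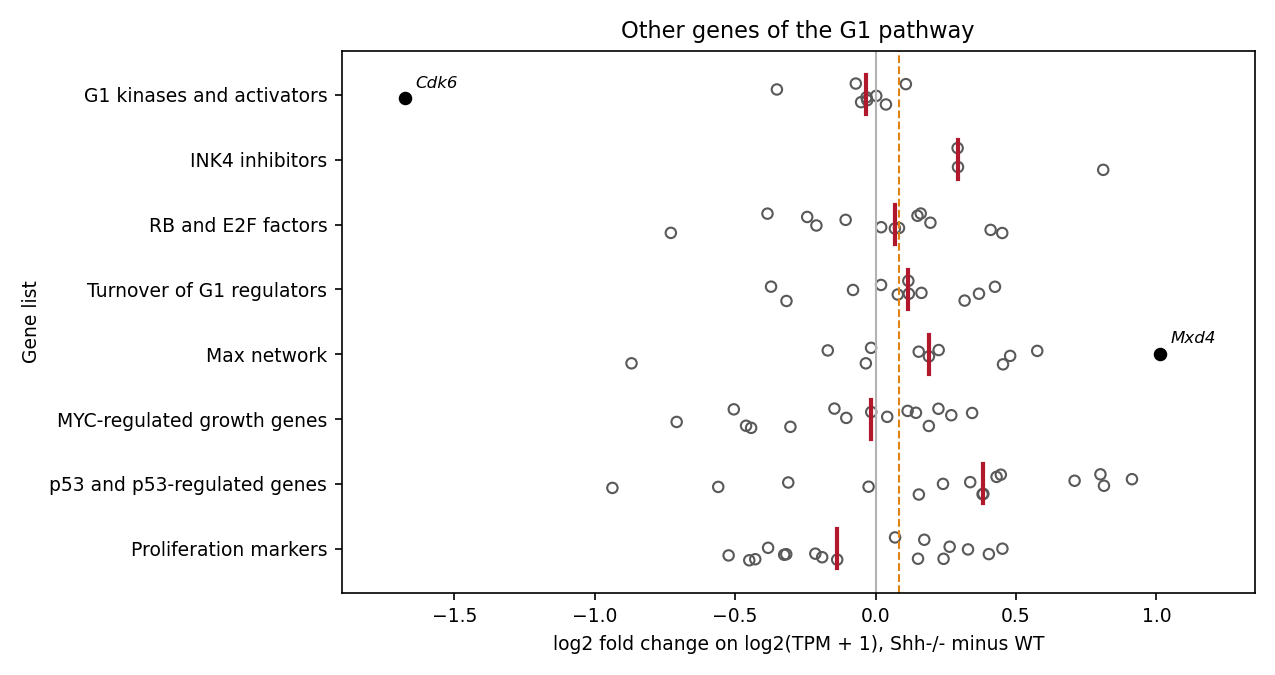
Log2 fold change on log2(TPM + 1), Shh-/- minus WT, of the tested genes in 8 lists of the pathway, filled where the limma adjusted p is under 0.05, with the median of each list in red and that of all tested genes dashed. *Cdk6* at −1.67 and *Mxd4* at 1.01 are the only filled points, and 11 of the 15 points of the p53 list lie above 0. The median of all tested genes, 0.08, also lies above 0.

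Some marker lists of other cell types had sums that differed with the genotype, and others had sums that overlapped. The summed TPM of 12 neuron markers was 825.4 and 921.5 in Shh-/- and 225.5 and 170.0 in WT, with 6 of 12 passing the threshold as higher. For 10 tested muscle markers 2 passed as higher, with sums over the list of 232.3 and 362.9 against 127.1 and 127.6 TPM, and for 10 tested neural crest markers 2 passed as higher, with sums of 232.9 and 212.7 against 130.1 and 100.7 TPM. Over all tested genes, 0.560% passed as higher and 0.165% as lower. Of 6 endothelial markers none passed, and the sums were 259.2 and 298.3 against 181.4 and 173.3 TPM. All 6 erythroid markers had a negative log2 fold change, with none passing. The sums of the erythroid markers and of the macrophage markers (12.1 to 13.8 against 10.6 to 13.1 TPM) overlapped between the genotypes. So did those of the epithelial markers (605.0 to 693.8 TPM in Shh-/-, 642.1 to 657.3 in WT), but these markers went both ways. Of the 10, 5 were lower, all without overlap and 3 at an unadjusted p under 0.05. The other 5 were higher, 3 of them without overlap and 1 at that p, with no call in limma. Over all tested genes, 22.7% were lower and 38.0% higher without overlap, and 7.22% and 17.5% were so at that p. *Foxa2*, a factor of foregut endoderm, was lowest, at 5.34 and 9.12 against 29.2 and 39.8 TPM (log2 fold change −2.13, limma adjusted p = 0.0602). The mesenchyme markers also went both ways, with sums of 609.5 and 555.1 against 432.7 and 421.7 TPM. Of the 10, 6 were higher, 4 of them at an unadjusted p under 0.05 and *Twist1* past the threshold, and 4 were lower, 2 of them at that p. *Foxf1*, an HH target of foregut mesenchyme, was lowest, at 0.85 and 9.57 against 72.3 and 64.6 TPM (log2 fold change −3.97, limma adjusted p = 0.0976). No listed marker was at 0 in all libraries. The part of such cells in the higher *Cdkn1b* and *Cdkn1c* or the lower cyclin RNA was not tested, and in tissue RNA fewer cells of a type and less RNA per cell cannot be told apart.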

How the data were processed

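Total RNA from 4 pools of 3 larynxes was made into stranded poly(A) libraries and sequenced single-end by the authors, who aligned the reads to mm10 with HISAT2 2.1.0 and built gene tables with StringTie 1.3.6. The deposited tables give coverage (mean read depth per base, not scaled), FPKM and TPM, the last scaled by the authors to a sum of 1000000 per library. No counts were used, so no counting intervals were computed. Whether strand was set in the assembly is not given in the sources used here, and *Ccnd1*, *Ccnd2*, *Ccnd3* and *Ccne2* overlap genes on the other strand. Aligned bases were taken from the ratio of coverage to FPKM.

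TPM was summed per gene ID, and log2(TPM + 1) was fitted with limma 3.58.1 in R 4.3.3 (eBayes with a mean-variance trend) for the 16972 genes whose TPM averaged 1 or more, without covariates, Benjamini-Hochberg adjustment over all of them and a threshold of 0.05. The scripts were tested on simulated data. Family shares were compared by exact permutation. Nothing says whether the pools of a genotype came from separate litters, so p-values measure the spread between these pools. The members and lists were chosen with earlier results of these data known. Named genes are the members, *Shh*, *Ptch1* and *Gli1*, in each list those passing the threshold or else the 2 with the largest difference, and the 3 nearest profiles of the members with the largest rise and fall; *Cdk4*, *Ncl*, *Npm1*, *Bmp4*, *Nkx2-3*, *Twist1*, *Foxa2*, *Foxf1*, *Cul1* and *Mnat1* were named after their values were seen. The correction for GC content and transcript length used natural splines with 5 degrees of freedom each, on the longest GENCODE M21 transcript, for 16887 tested genes. Motif letters are the textbook forms for E2F, MYC with MAX and GLI, searched with the expression results known. Alternatives covered the pseudocount, the TPM filter, scaling, FPKM, the variance model, the threshold and each pool left out, and gene coverage, added after seeing the data.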

Additional observations from a re-analysis of the deposited data

How the results depend on the processing

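Of 160 values of the 10 genes under 16 alternatives, 157 kept their direction, and the 3 that did not were all of *Ccnd3* (−0.15 after the GC and length adjustment, and −0.29 to 0.79 when single pools were dropped). Values moved by over 1.5 times in at least 1 alternative for 6 of the 10 genes and for 14 of the 38 other genes named. When single pools were dropped, *Cdkn1a* ran from 0.05 to 0.47, *Myc* from 0.10 to 0.47 and *Mycn* from −0.29 to −0.14. Of the other named genes, 4 reversed: *Fbxw7* (−0.18 to 1.03), *Cdk4* (−0.37 to 0.31, with 0.19 without the WT pool numbered 6), *Cul1* (−0.41 to 0.25, with 0.18 without the WT pool numbered 4) and *Mnat1* (−0.41 to 0.35, with 0.31 without the WT pool numbered 6, and 0.14 after the GC and length adjustment). Of the 10 genes, 1 passed the threshold after the GC and length adjustment and 2 at an adjusted p under 0.10, while 0 passed in the other settings. The count of 123 genes over the whole table moved to 69 with a pseudocount of 0.1, to 858 at an adjusted p under 0.10, to 25 with gene coverage in place of TPM (a setting chosen after seeing the data; 15 higher and 10 lower, against 95 and 28), to 0 without the filter on TPM (5011 at an unadjusted p under 0.05) and to between 0 and 16 with 1 pool left out (2070 to 3761 at an unadjusted p under 0.05), where the lone pool is assumed to vary like the others. The 6 pathway genes called became 2, 17, 2, 0 and 0 in the same settings. The share of *Ccnd1* among D-type cyclins, 2.12 percentage points higher in Shh-/-, ran from −1.16 to 5.39 with 1 pool left out, and that of *Cdkn1c* among the inhibitors from −1.14 to 0.56. The median log2 fold change of all tested genes was 0.08 and became −0.05 with median centring, a shift to be taken from every gene alike. No paired analysis was possible because the pools of the genotypes share no replicate number. With 2 pools a group no exact permutation p falls below 0.33, which limits every family comparison.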

Other observations

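A pattern across the pools that does not follow the genotype was seen in *Ccnd3* and, chosen after their values were seen, in 3 other genes of the G1 lists. *Ccnd3* (181.1 and 156.2 TPM) and *Cul1* (265.0 and 267.2 TPM) were higher in the second Shh-/- pool and the WT pool numbered 4 than in the other pools (89.9 and 73.5 TPM, and 167.4 and 185.6 TPM). *Cdk4* ran the other way, with 804.4 and 893.2 TPM in these libraries and 1290 and 1215 TPM in the others, while *Mnat1* was at 60.6 TPM in the second Shh-/- pool and 60.1 TPM in the WT pool numbered 6 and at 35.5 and 37.4 TPM in the others. The second Shh-/- pool and the WT pool numbered 4 had an RNA integrity number of 7.7 each, and the other pools 8 and 9. The same 2 pools had less total RNA (200 and 210 ng, against 260 and 310 ng). Their cDNA input was also smaller (100 and 110 ng, against 130 and 155 ng). The spread of the 3 other genes depended on the measure. With gene coverage in place of TPM, the standard error of the log2 fold change went from 0.27 to 0.09 for *Cdk4*. It went from 0.34 to 0.10 for *Mnat1* and from 0.28 to 0.12 for *Cul1*. For *Ccnd3* it was 0.48 in TPM and 0.57 in gene coverage. The part of RNA quality, of RNA amount or of the quantification in these values was not tested.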
